A study of Homo sapiens with 3 samples.

Results

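The lysosome breaks down proteins, lipids, glycans and glycogen with hydrolases that work at acid pH. The proton-pumping V-ATPase acidifies its lumen: the V1 sector in the cytosol hydrolyses ATP and drives the V0 sector, which carries protons across the membrane. Soluble hydrolases and their activators reach the lumen mostly by mannose 6-phosphate sorting, while membrane proteins line the organelle and move lipids, ions and cargo across it. A larger lysosomal compartment is a known trait of senescent cells, and the β-galactosidase stain used for senescence reads the lysosomal enzyme encoded by GLB1. The transcription factors TFEB, TFE3 and MITF are known to bind CACGTG-containing elements near many of these genes.

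This lysosomal set held 32 of the 33538 genes in the matrices. The genes were listed by name, but with earlier results of these data known, so the set is not blind to them. It has 3 classes: 13 soluble lumenal proteins (hydrolases, the saposin precursor PSAP, granulin precursor GRN and the cholesterol carrier NPC2), 6 membrane proteins and 13 V-ATPase genes, made up of 7 V1 subunits, 4 V0 subunits and 2 accessory proteins. The cells were HCT116, a human colorectal cancer line of the p53plus genotype, profiled as single cells in 2 droplet libraries. Mix1 held cells given 8 Gy only: giant cells that were isolated on day 5 or day 8 and kept until day 10 or day 11, combined without a mark, so that these batches cannot be resolved. Mix2 combined 3 preparations under antibody hashtags: irradiated cells prepared like those of Mix1 (tag8, 10000 cells loaded), non-irradiated cells (NC, tag6, 1000 cells) and repopulated cells that had regrown after 8 Gy (R, tag7, 1000 cells).

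NC cells carried at least 374 tag6 counts, R cells at least 104 tag7 counts, strong IR cells at least 3160 tag8 counts and weak IR cells 500 to 3159 tag8 counts, and each had at least 80% of its tag counts on its own tag. This gave 810 NC, 633 R, 6322 weak IR and 2216 strong IR cells, beside 15630 cells of Mix1. Levels are counts per 1000000 (CPM) of the unique molecules (UMIs) summed over all cells of a population. A member was measured where at least 1 of the populations compared reached 10 CPM, and a ratio of at least 1.5 in either direction counted as a call. Each population is 1 sample, so no test between them could be made, and the 95% intervals (exact Poisson for a level, exact conditional binomial for a ratio) cover counting error only. NC is the common reference of 4 comparisons, which are therefore not independent of each other. Mix1 is a separate library without a tag limit, so that differences of library, of preparation and of tag selection cannot be told apart there.

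Summed gene UMIs ran from 4731705 in R to 150680612 in Mix1, and median UMIs per cell were 7160.5 in NC, 6933 in R, 7216 in weak IR, 11861.5 in strong IR and 8995.5 in Mix1. CDKN1A, the p53 target that encodes the cell cycle inhibitor p21, stood at 180 CPM in NC, 255 in R, 265 in weak IR, 918 in strong IR and 630 in Mix1. MKI67, a proliferation marker, stood at 334, 317, 288, 126 and 165 CPM in the same order. Weak IR cells, which carry the irradiated tag, were thus near R and NC in both genes. Whether all of them came from the irradiated preparation cannot be settled from the tags, so that weak IR is a name for a range of tag8 counts. The epithelial genes EPCAM, CDH1, KRT8, KRT18 and KRT19 were present in all 5 populations, while VIL1 was at most 0.423 CPM. Markers of macrophages, lymphocytes, endothelium, fibroblasts and red cells did not exceed 2.99 CPM in any of them. Mix1 and Mix2 shared 59 cell barcodes, and droplets of Mix2 without a cell held a median of 118 tag8, 11 tag6 and 4 tag7 counts.

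The promoters below show an annotated start region of each of 6 genes whose levels are described next. Windows of 250 bases before to 50 bases after a start site (RefSeq, GRCh38.p14) were held for 24 of the 32 members. The other 8 are LAMP2, HEXA, PSAP, ASAH1, ATP6V0E1, ATP6V1A, ATP6V1B2 and ATP6V1H. GRN (chr17:44345052-44345351, plus strand) and LIPA (chr10:89414630-89414929, minus strand) had the highest ratios of strong IR to NC among members with a window, and NPC1 (chr18:23586457-23586756, minus strand) and MAN2B1 (chr19:12666693-12666992, minus strand) the lowest, a ranking that ignores the 10 CPM minimum, which both NPC1 and MAN2B1 missed. Among measured members with a window GLA was lowest. The LIPA window lies wholly upstream of the annotated span of the gene (chr10:89213569-89414557, minus strand). Whether LIPA transcripts of these cells start there was not tested. LAMP1 (chr13:113296989-113297288, plus strand) and GAA (chr17:80101331-80101630, plus strand) were added after the motif matches were seen, for the number of matches they hold. Capitals mark CACGTG, which reads the same on both strands, and every window is written 5′ to 3′ on the strand of its gene.
GRN: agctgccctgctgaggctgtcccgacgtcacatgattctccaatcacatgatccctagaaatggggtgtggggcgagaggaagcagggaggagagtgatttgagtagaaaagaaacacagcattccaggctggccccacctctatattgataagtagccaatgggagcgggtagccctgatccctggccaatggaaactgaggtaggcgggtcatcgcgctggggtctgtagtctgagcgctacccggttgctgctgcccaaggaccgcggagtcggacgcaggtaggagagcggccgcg
LIPA: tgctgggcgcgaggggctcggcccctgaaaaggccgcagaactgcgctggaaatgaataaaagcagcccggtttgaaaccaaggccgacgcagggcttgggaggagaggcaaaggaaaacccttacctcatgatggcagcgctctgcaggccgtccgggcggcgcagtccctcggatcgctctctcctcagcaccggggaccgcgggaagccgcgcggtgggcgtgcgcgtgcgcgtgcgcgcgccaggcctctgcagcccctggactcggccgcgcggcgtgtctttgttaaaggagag
NPC1: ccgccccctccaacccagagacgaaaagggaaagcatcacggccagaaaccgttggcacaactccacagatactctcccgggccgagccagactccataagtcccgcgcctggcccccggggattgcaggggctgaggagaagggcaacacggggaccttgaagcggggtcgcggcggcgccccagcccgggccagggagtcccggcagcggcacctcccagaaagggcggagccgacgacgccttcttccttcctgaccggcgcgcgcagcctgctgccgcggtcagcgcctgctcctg
MAN2B1: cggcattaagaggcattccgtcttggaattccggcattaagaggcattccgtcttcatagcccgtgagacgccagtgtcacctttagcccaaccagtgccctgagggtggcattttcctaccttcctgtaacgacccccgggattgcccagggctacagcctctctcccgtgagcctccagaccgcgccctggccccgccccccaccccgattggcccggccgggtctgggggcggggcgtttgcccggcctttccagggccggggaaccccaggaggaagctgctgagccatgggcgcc
LAMP1: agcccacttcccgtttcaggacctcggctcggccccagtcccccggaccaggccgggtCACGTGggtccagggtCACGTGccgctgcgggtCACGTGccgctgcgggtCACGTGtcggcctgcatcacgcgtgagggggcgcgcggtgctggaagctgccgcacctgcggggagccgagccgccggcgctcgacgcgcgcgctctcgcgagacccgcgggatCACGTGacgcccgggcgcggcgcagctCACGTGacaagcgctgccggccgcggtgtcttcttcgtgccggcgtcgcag
GAA: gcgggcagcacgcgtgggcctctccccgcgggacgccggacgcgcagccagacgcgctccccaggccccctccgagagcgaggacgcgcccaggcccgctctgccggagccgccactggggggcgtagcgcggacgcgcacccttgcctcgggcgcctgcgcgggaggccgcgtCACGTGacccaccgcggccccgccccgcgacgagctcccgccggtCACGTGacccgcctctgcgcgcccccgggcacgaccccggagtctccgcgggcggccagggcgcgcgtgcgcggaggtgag

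CACGTG was found in at least 1 window of 8 of the 24 members (33.3%), against 8.77% of the 27305 genes with a window. Members had more windows per gene, 36 for 24 genes against 35116 for 27305, which raises a share by gene. By window it was 22.2% of those of members against 7.26% of all. The longer TCACGTG, searched on both strands and overlapping CACGTG by construction, was found in 7 of 24 members (29.2%) against 4.49% of all genes. LAMP1 held 6 copies of CACGTG, at positions -192, -176, -159, -142, -28 and -1 from the start site. GAA held 2, at -76 and -31, as did MCOLN1 (-41 and -14) and ATP6V0B (-57 and -39), while NEU1, ATP6V1G1, ATP6V0D1 and CD63 held 1 each. By class, 2 of 10 soluble, 3 of 5 membrane and 3 of 9 V-ATPase genes with a window held it. GRN and LIPA, the members with the highest ratios among those with a window, held none, and neither did NPC1 or MAN2B1. These are matches of letters only, and binding was not measured.

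The strongly tagged irradiated cells were first compared with non-irradiated cells of the same library. Lysosomal transcripts took a larger share of the UMIs in strong IR: the members summed to 3091 CPM against 2305 CPM in NC, a ratio of 1.34 (95% interval 1.32 to 1.36). The gain was uneven. Soluble proteins summed to 809 against 519 CPM (ratio 1.56, 1.5 to 1.62), V-ATPase genes to 1691 against 1246 CPM (1.36, 1.33 to 1.39) and membrane proteins to 592 against 540 CPM (1.09, 1.05 to 1.14). Per cell, where strong IR cells also held more UMIs in total, the members summed to 37.8 UMIs in strong IR and 17.4 in NC.

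Of 27 members measured in this comparison, 7 were at least 1.5 times higher in strong IR and 0 were lower. Over all 7722 genes measured, 9.92% were higher and 15.4% lower by the same limit. The median log2 ratio was 0.39 over the measured members and -0.11 over all measured genes. Ratios were above 1 for 23 of the 27, with intervals above 1 for 19 and below 1 for 3. Among the measured members 1, LIPA, reached 10 CPM only through strong IR.

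**Figure D1:**
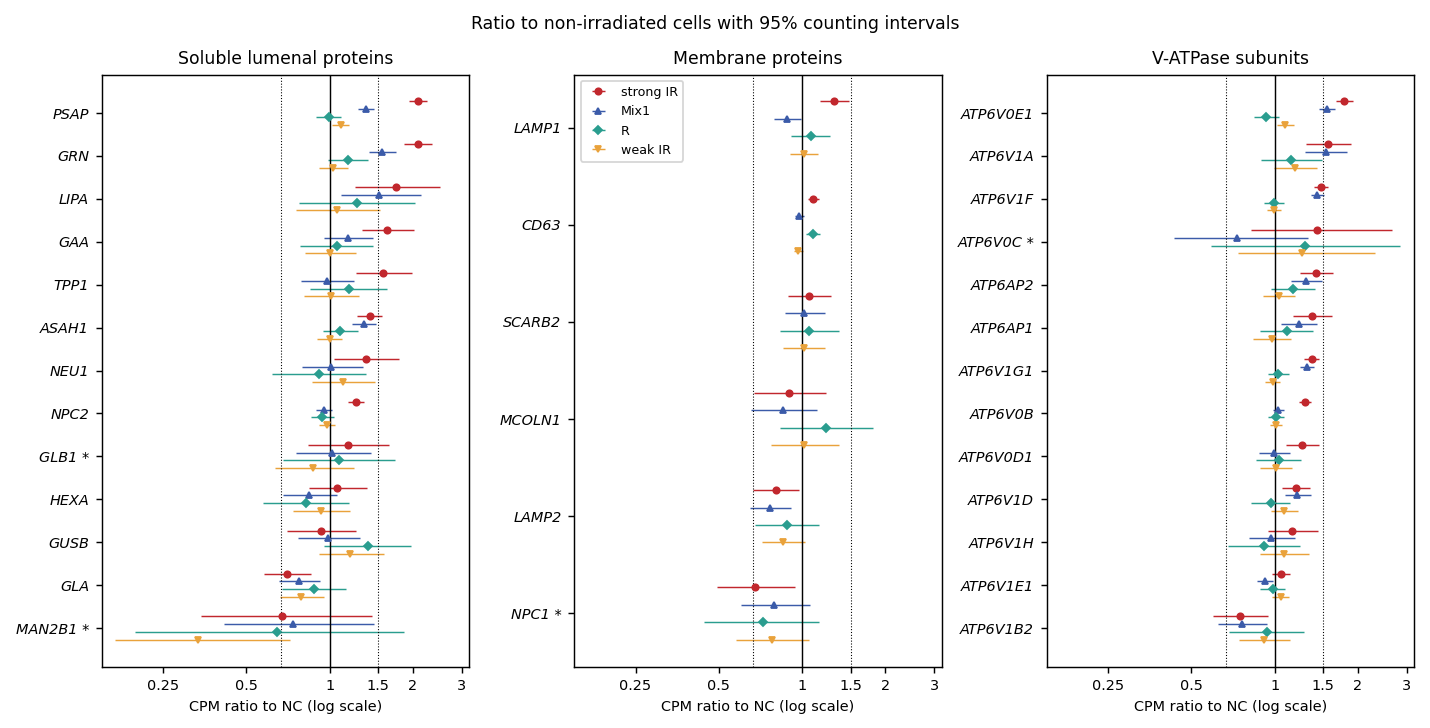
CPM ratio to NC (log axis) of each member in strong IR, Mix1, R and weak IR, with bars for exact 95% counting intervals, dotted lines at 1.5 times higher and lower, and asterisks for members under 10 CPM in all 5 populations. Strong IR points of PSAP, GRN and ATP6V0E1 lie beyond the 1.5 line with narrow intervals, while R and weak IR points cluster around 1.

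Among soluble proteins, PSAP and GRN were raised most. PSAP, whose product is cut into the saposins that present sphingolipids to their hydrolases (chr10:71816298-71851251, minus strand, GENCODE 44 on GRCh38), was at 136 CPM in NC, 135 in R, 149 in weak IR, 284 in strong IR and 184 in Mix1. GRN, the precursor of the granulins that act in the lysosome (chr17:44345246-44353106, plus strand), was at 51.6, 60.2, 53.1, 108 and 79.9 CPM in the same order. In both genes strong IR was highest, Mix1 second, and the other 3 populations lay close together. The ratio of strong IR to NC was 2.09 (1.94 to 2.25) for PSAP and 2.08 (1.86 to 2.35) for GRN.

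Further soluble members past the limit were 3 acid hydrolases. LIPA, the acid lipase that frees cholesterol and fatty acids, was at 6.23 CPM in NC, 7.82 in R, 6.60 in weak IR, 10.8 in strong IR and 9.42 in Mix1, with a strong IR to NC ratio of 1.74 (1.24 to 2.5). GAA, the acid glucosidase that degrades glycogen, was at 16.5, 17.5, 16.6, 26.8 and 19.2 CPM in that order, with a ratio of 1.62 (1.31 to 2.01). TPP1, a tripeptidyl peptidase, was at 14.3, 16.7, 14.4, 22.3 and 13.9 CPM, with a ratio of 1.56 (1.25 to 1.98). These 3 genes were highest in strong IR. In Mix1 against NC only LIPA had an interval above 1 (1.51, 1.10 to 2.15), under 10 CPM in both. Those of GAA (1.16, 0.952 to 1.43) and TPP1 (0.977, 0.789 to 1.23) included 1.

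Members below the limit but with an interval above 1 were ASAH1, NEU1 and NPC2. ASAH1, the acid ceramidase, was at 67.0 CPM in NC, 73.1 in R, 67.1 in weak IR, 93.4 in strong IR and 89.2 in Mix1 (strong IR to NC, 1.40). NPC2, which takes up cholesterol in the lumen, was at 160, 151, 157, 199 and 153 CPM (1.24), and NEU1, a sialidase, at 10.8, 9.93, 12.1, 14.6 and 11 CPM (1.35). ASAH1 in Mix1 was thus close to strong IR, whereas NPC2 and NEU1 in Mix1 were close to NC.

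For the other hydrolases among the members no interval of strong IR to NC lay above 1. GLA, the α-galactosidase, was at 23.3 CPM in NC, 20.5 in R, 18.4 in weak IR, 16.3 in strong IR and 18.0 in Mix1, so that NC was highest and the strong IR ratio was 0.702 (0.580 to 0.854). HEXA, a hexosaminidase subunit, and GUSB, the β-glucuronidase, had strong IR to NC ratios of 1.07 (0.841 to 1.37) and 0.929 (0.703 to 1.24). GLB1, the enzyme behind the senescence stain, was at 7.21 CPM in NC, 7.82 in R, 6.28 in weak IR, 8.37 in strong IR and 7.36 in Mix1, below the 10 CPM minimum throughout. Its strong IR to NC ratio was 1.16, and the interval of 0.838 to 1.64 leaves both a small decrease and an increase beyond 1.5-fold possible from counting alone. MAN2B1, a mannosidase, was at most 1.97 CPM in any population. Against weak IR, the strong IR ratio was 1.33 (1.12 to 1.59) for GLB1, 1.15 (1.01 to 1.31) for HEXA and 2.01 (1.21 to 3.36) for MAN2B1. It was 0.781 (0.672 to 0.905) for GUSB and 0.888 (0.790 to 0.997) for GLA.

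The membrane class was nearly level. LAMP1, a main glycoprotein of the lysosomal membrane (chr13:113297239-113323672, plus strand), was at 54.2 CPM in NC, 58.3 in R, 54.9 in weak IR, 70.8 in strong IR and 47.9 in Mix1. Its ratio to NC was 1.31 (1.16 to 1.47) in strong IR and 0.884 (0.791 to 0.990) in Mix1, so that the irradiated populations fell on either side of NC. LAMP2, its partner in the membrane with a role in autophagy, was highest in NC: 23.4 CPM, against 20.7 in R, 20 in weak IR, 18.8 in strong IR and 18.0 in Mix1.

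CD63, a tetraspanin of late endosomes and lysosomes, was at 420 CPM in NC, 458 in R, 407 in weak IR, 461 in strong IR and 410 in Mix1, and it made up most of the class sum. SCARB2, an integral protein of the lysosomal membrane, was even, between 25.1 and 26.6 CPM in all 5 populations. NPC1, the cholesterol exporter, was at 8.52 CPM in NC and 5.75 in strong IR, and MCOLN1, a lysosomal calcium channel, at 9.50 and 8.55 CPM. Both were under the 10 CPM minimum in NC, strong IR and Mix1, and the median log2 ratio of the 4 membrane members measured was 0.11.

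Of 12 V-ATPase genes measured in strong IR against NC, 2 were at least 1.5 times higher and 0 lower: ATP6V0E1 of the V0 sector and ATP6V1A of the V1 sector. Over all 7722 genes measured, 9.92% were higher and 15.4% lower, so these calls alone do not set the class apart. Intervals lay above 1 for 9 of the 12 and below 1 for 1. ATP6V0E1, a small V0 subunit (chr5:172983771-173035445, plus strand), was at 141 CPM in NC, 132 in R, 154 in weak IR, 252 in strong IR and 218 in Mix1, with a strong IR to NC ratio of 1.78 (1.66 to 1.92). ATP6V1A, the catalytic V1 subunit, was at 22.1, 25.4, 26.2, 34.5 and 33.8 CPM, with a ratio of 1.56 (1.30 to 1.89). Both irradiated populations with high CDKN1A stood above the other 3 in these genes.

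Further V1 subunits split. ATP6V1F was at 220 CPM in NC, 219 in R, 219 in weak IR, 323 in strong IR and 313 in Mix1 (strong IR to NC 1.47, 1.39 to 1.56), and ATP6V1G1 at 198, 204, 195, 270 and 259 CPM (1.36, 1.28 to 1.45). ATP6V1D had a ratio of 1.19 (1.06 to 1.34). ATP6V1E1 and ATP6V1H had ratios of 1.05 and 1.16 with intervals that included 1, and ATP6V1B2, the other subunit of the ATP-hydrolysing head, had a ratio of 0.750 (0.600 to 0.945), from 16.7 CPM in NC to 12.5 in strong IR. The A and B subunits, which alternate in the head of the pump, thus differed in direction over all cells. In neither band of UMIs per cell, read below, did both differ from NC beyond counting error.

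In the V0 sector, ATP6V0B, a proton-carrying ring subunit, was at 315 CPM in NC, 319 in R, 318 in weak IR, 406 in strong IR and 325 in Mix1 (strong IR to NC 1.29, 1.23 to 1.35). ATP6V0D1, which couples the ring to the stalk, was at 41.3, 42.7, 41.8, 51.9 and 41.1 CPM (1.26, 1.10 to 1.44). In these V0 genes Mix1 was at the NC level. ATP6V0C, the main ring subunit, was at most 3.5 CPM. The accessory proteins ATP6AP1 and ATP6AP2 had ratios of 1.36 (1.17 to 1.61) and 1.41 (1.24 to 1.62).

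**Figure D2:**
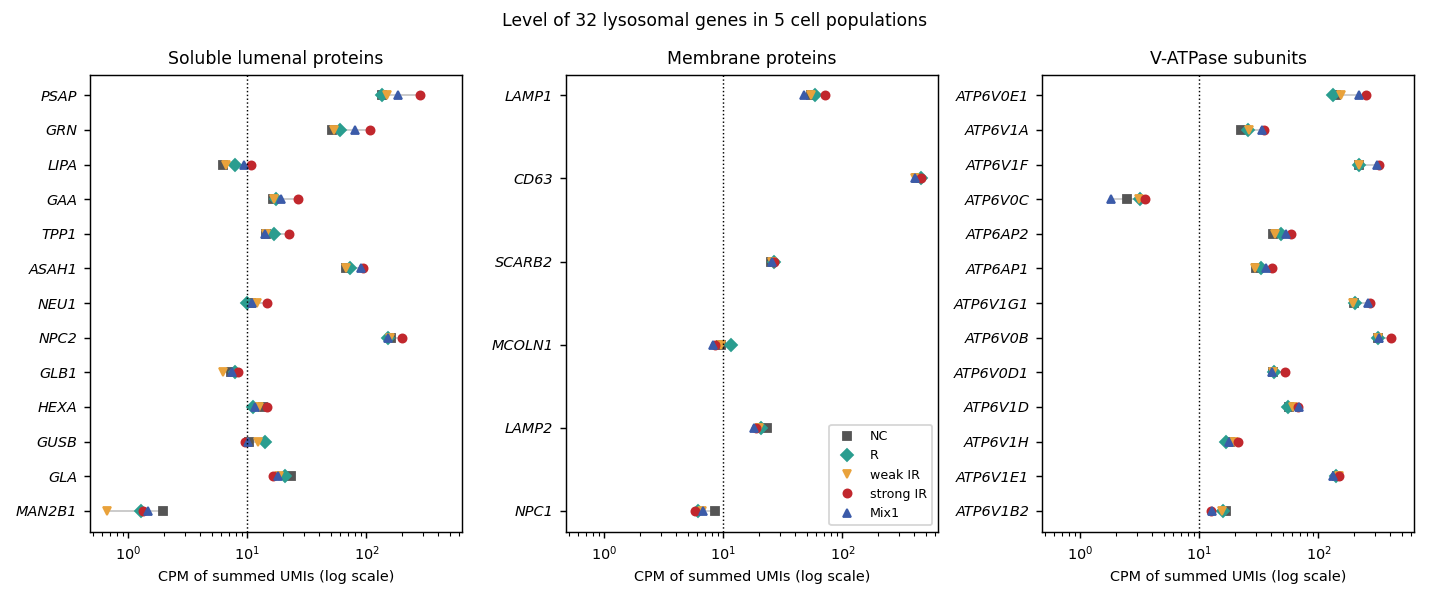
Level of each member in CPM of summed UMIs (log axis) in the 5 populations, by class and ordered by the strong IR to NC ratio, with a dotted line at 10 CPM. Strong IR and Mix1 stand to the right of the other 3 populations for GRN, ATP6V0E1, ATP6V1A and ATP6V1F, and MAN2B1 and ATP6V0C lie under the line.

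Depth and tag strength differ between these populations, so the same ratios were read within bands of UMIs per cell. In cells with 5000 to 9999 UMIs (580 NC and 639 strong IR cells) the strong IR to NC ratio was 2.38 (2.16 to 2.62) for PSAP, 2.54 (2.16 to 2.99) for GRN and 2.05 (1.86 to 2.27) for ATP6V0E1. In cells with 10000 to 19999 UMIs (118 and 1265 cells) it was 2.06, 1.78 and 1.59. In each band 7 members were at least 1.5 times higher, of 26 measured in the lower band and 28 in the upper, where 13.3% and 10.5% of all measured genes were higher. The members differed: PSAP, GRN, GAA and ATP6V0E1 passed in both bands. ATP6V1A (1.73), ATP6AP1 (1.68) and ATP6AP2 (1.61) passed only in the lower, and TPP1 (1.935), NEU1 (1.59) and ATP6V1F (1.51) only in the upper. In the upper band ATP6V1A was at 1.28 (0.929 to 1.82) and LIPA at 1.14 (0.664 to 2.12). ATP6V1B2 in the lower band was at 0.896 (0.622 to 1.29). ATP6V1A and ATP6V1B2 thus kept opposite directions in each band, but in neither were both beyond counting error. GLA in the lower band (0.644) and ATP6V1B2 and NPC1 in the upper band (0.577 and 0.457) were at least 1.5 times lower, as were 20.9% and 20.1% of all genes. The bands were chosen after the data had been seen.

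Mitochondrial UMIs were 6.03% in NC, 7.13% in R, 6.54% in weak IR, 5.49% in strong IR and 4.06% in Mix1, and the share of ribosomal protein genes was 23.6%, 24.1%, 23.9%, 27.3% and 28.8%. The part of these shares in the lysosomal ratios was read from CPM without both gene groups, by which 8 members were higher in strong IR, as were 13.2% of all measured genes. Droplets without cells in Mix2 held PSAP at 231 CPM, GRN at 83.8, ATP6V0E1 at 217, CD63 at 503 and LAMP1 at 64.0, so free RNA carried these transcripts as well. With that profile subtracted, 8 members were higher in strong IR than in NC, as were 10.6% of all measured genes.

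Cells in the weak IR range of tag8 were compared with NC in the same way. Of 26 members measured, 0 were higher and 0 lower by 1.5-fold, where 0.709% of all 7478 measured genes were higher and 0.481% lower. The median log2 ratio was 0.02 over the members and -0.03 over all genes. Intervals lay above 1 for PSAP (1.10, 1.02 to 1.18) and ATP6V0E1 (1.09, 1.02 to 1.17) and below 1 for GLA (0.790, 0.661 to 0.951), in the same directions as in strong IR but smaller in each case. Summed CPM was 526 against 519 for soluble, 524 against 540 for membrane and 1275 against 1246 for V-ATPase genes.

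Between the tag8 classes of Mix2, 6 of 27 measured members were at least 1.5 times higher in strong than in weak IR and 0 were lower. Over all 7625 genes measured, 7.23% were higher and 10.6% lower. The 6 were GRN (2.03, 1.92 to 2.14), PSAP (1.91, 1.84 to 1.97), LIPA (1.64), ATP6V0E1 (1.63), GAA (1.61) and TPP1 (1.55), of which LIPA reached 10 CPM only in strong IR. Median log2 ratios were 0.48 for soluble, 0.12 for membrane and 0.37 for V-ATPase genes. Because tag8 sets these classes, their values were also followed along the tag.

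Across 6 bins of tag8 (500 to 999, 1000 to 1999, 2000 to 3159, 3160 to 4999, 5000 to 9999, and 10000 or more), the soluble class summed to 525, 509, 559, 724, 846 and 841 CPM. V-ATPase genes summed to 1250, 1269, 1307, 1515, 1708 and 1815 CPM, and membrane proteins to 518, 516, 544, 584, 635 and 555 CPM. The lowest 3 bins were near NC in all classes. The largest gap between neighbouring bins was that from the third to the fourth for soluble and V-ATPase genes, with a V-ATPase gap nearly as large to the fifth, and that from the fourth to the fifth was the largest gain for membrane proteins. CDKN1A followed the same bins with 255, 232, 336, 652, 965 and 1085 CPM and MKI67 with 266, 294, 295, 205, 129 and 59.5 CPM.

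Single members took different courses along the tag. ATP6V0E1 was higher in each bin from the second onward, with 153, 150, 164, 193, 247 and 305 CPM. PSAP (148, 142, 162, 247, 300 and 297 CPM) and GRN (53.3, 50.2, 58.5, 85.5, 121 and 112 CPM) levelled off in the last 2 bins. GLA was lowest in the last bin, at 11.2 CPM against 21.7 in the fourth, and GLB1 was at 10.1, 9.92 and 5.45 CPM in the last 3 bins. The GLB1 values rest on 79, 95 and 53 UMIs, and their intervals all overlap that of NC (5.24 to 9.68 CPM).

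Cells with 10000 or more tag8 counts, 844 of the 2216 strong IR cells, held 3.92% mitochondrial UMIs, against 6.77% and 6.03% in the fourth and the fifth bins, and their part in the class values was read by leaving them out. Without them 8 members were higher in strong IR than in NC and 0 lower (8.75% and 8.78% of all measured genes), the ATP6V0E1 ratio was 1.57 in place of 1.78, and the median log2 ratios were 0.52 for soluble, 0.18 for membrane and 0.36 for V-ATPase genes. In NC and R, equal groups of cells by their own tag did not show such a rise in the soluble class. It summed to 518, 516 and 522 CPM from low to high tag6 in NC, and to 553, 511 and 523 CPM from low to high tag7 in R. The other classes were lowest in the lowest tag group. V-ATPase genes summed to 1217, 1250 and 1261 CPM in NC and to 1214, 1265 and 1267 in R. Membrane proteins summed to 517.1, 522.9 and 570.5 CPM in NC and to 555, 591.9 and 589.2 in R.

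**Figure D3:**
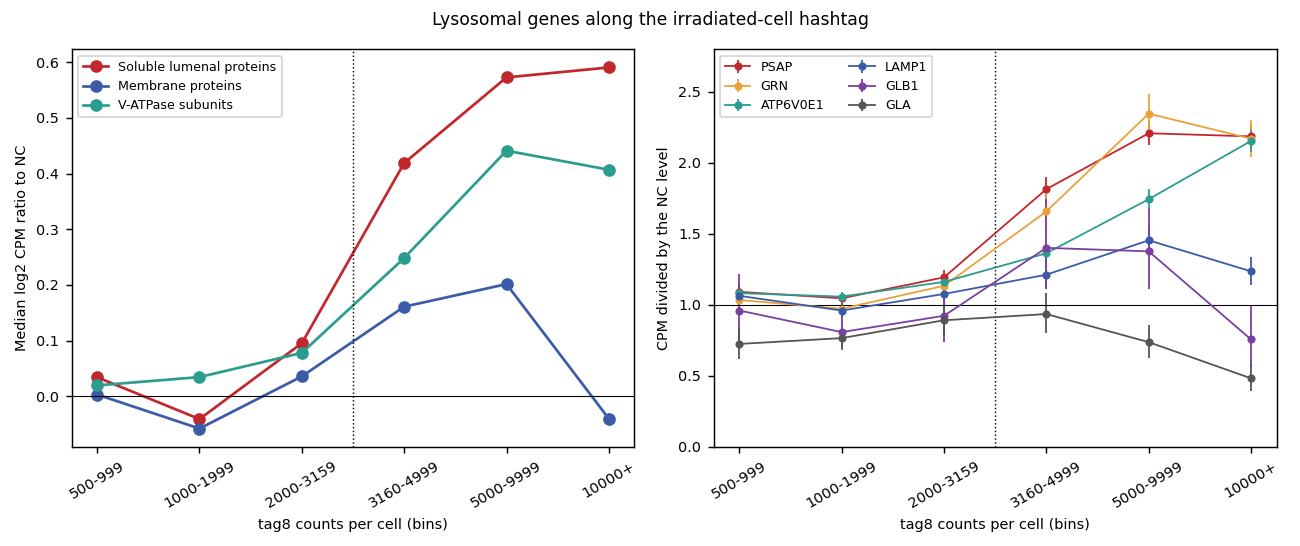
Left, median log2 CPM ratio to NC of each class in 6 bins of tag8 counts per cell; right, CPM of 6 members divided by their NC level, with exact 95% Poisson bars; the dotted line divides weak from strong IR. Soluble and V-ATPase genes are higher from the fourth bin on, the membrane class is at the NC level in the last bin, and GLA ends below it.

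Repopulated cells, which descend from irradiated cells that regrew, were near NC. Of 27 members measured, 0 were higher and 0 lower by 1.5-fold, where 1.45% of all 7533 measured genes were higher and 1.83% lower. The median log2 ratio was 0.04 over the members and -0.04 over all genes. The interval excluded 1 for CD63 only (1.09, 1.03 to 1.16). PSAP had a ratio of 0.995 (0.896 to 1.10), GRN of 1.17 (0.991 to 1.37), ATP6V0E1 of 0.931 (0.839 to 1.03) and LAMP1 of 1.08 (0.914 to 1.27). For PSAP, GRN, ATP6V0E1 and LAMP1 alike the intervals thus lie below the ratios seen in strong IR. For LAMP1 this is only just so, as its strong IR ratio of 1.31 has an interval (1.16 to 1.47) that overlaps that of R. With 633 cells, low members were less certain: GUSB was at 14.2 CPM against 10.3 in NC, with an interval from 0.958 to 1.97.

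Mix1, the other library of irradiated cells, showed part of the pattern. Against NC, 3 of 26 measured members were at least 1.5 times higher and 0 lower, where 6.97% of all 7662 measured genes were higher and 10.0% lower. The 3 were GRN (1.55, 1.39 to 1.74), ATP6V0E1 (1.54, 1.44 to 1.66) and ATP6V1A (1.53, 1.29 to 1.83), all close to the limit. Among cells with 5000 to 15000 UMIs 0 members passed it (5.44% of all genes), and among those with 5000 to 9999 UMIs only ATP6V1A did, at 1.52 (1.21 to 1.92; 5.41% of all genes). Median log2 ratios were 0.28 for V-ATPase, 0.00 for soluble and -0.11 for membrane genes, with summed CPM of 1512 against 1246, 608 against 519 and 516 against 540.

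Mix1 and strong IR were then set against each other, since both were prepared from irradiated giant cells. They were not selected alike: strong IR holds only tag8 cells with at least 3160 counts, while Mix1 holds all kept cells of its library. The members summed to 2636 CPM in Mix1, between 2325 in weak IR and 3091 in strong IR. The part of this selection in the ratios was not tested. All but 4 of the 27 measured members were lower in Mix1, with intervals below 1 for 20 and above 1 for 0. Of these, 2 passed the 1.5-fold limit and 0 were higher by it, where 3.41% of all 7571 measured genes were lower and 3.53% higher. The 2 were TPP1 (0.626, 0.571 to 0.686) and PSAP (0.648, 0.632 to 0.664). LAMP1 followed just inside the limit at 0.677 (0.643 to 0.712), then GAA at 0.718, GRN at 0.743, NEU1 at 0.753 and NPC2 at 0.766. Median log2 ratios were -0.38 for soluble, -0.12 for membrane and -0.14 for V-ATPase genes, against 0.03 over all genes.

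Within the V-ATPase the subunits varied. Among 7 V1 subunits, ATP6V1F (0.968), ATP6V1G1 (0.959), ATP6V1A (0.979), ATP6V1D (1.01) and ATP6V1B2 (1.01) had Mix1 to strong IR ratios close to 1, while ATP6V1E1 (0.878, 0.849 to 0.909) and ATP6V1H (0.841, 0.768 to 0.922) were as low as V0 subunits. The V0 subunits were lower in Mix1, at 0.800 for ATP6V0B, 0.791 for ATP6V0D1 and 0.867 for ATP6V0E1. The median log2 ratio was -0.05 over 7 V1 and -0.32 over 3 V0 members, and the difference between sectors was not tested. ASAH1 was the one soluble member above NC by interval in both populations that came close to equality, at 0.954 (0.914 to 0.996).

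The populations disagreed on 8 members whose interval lay above 1 in strong IR but not in Mix1: LAMP1, CD63, TPP1, NPC2, NEU1, GAA, ATP6V0B and ATP6V0D1. For LAMP1, TPP1, NPC2 and ATP6V0B the ratios to NC were 1.31, 1.56, 1.24 and 1.29 in strong IR and 0.884, 0.977, 0.954 and 1.03 in Mix1. They were alike for LAMP2, GLA and ATP6V1B2, which were below NC in both, with strong IR ratios of 0.802, 0.702 and 0.750 and Mix1 ratios of 0.767, 0.775 and 0.759, and all 6 intervals below 1.

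Mix1 was itself uneven in depth. It held 4963 cells with fewer than 5000 UMIs, in which mitochondrial UMIs were 2.49% and the soluble class summed to 701 CPM, against 542 CPM in its 3926 cells with 5000 to 9999 UMIs, 599 in its 5446 cells with 10000 to 19999 and 654 in its 1295 deeper cells. In strong IR the same bands gave 863, 860, 800 and 773 CPM, so that the gap between them was widest at 5000 to 9999 UMIs. There, 6 members and 9.42% of all measured genes were at least 1.5 times lower in Mix1, with PSAP at 0.468 and GRN at 0.535.

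**Figure D4:**
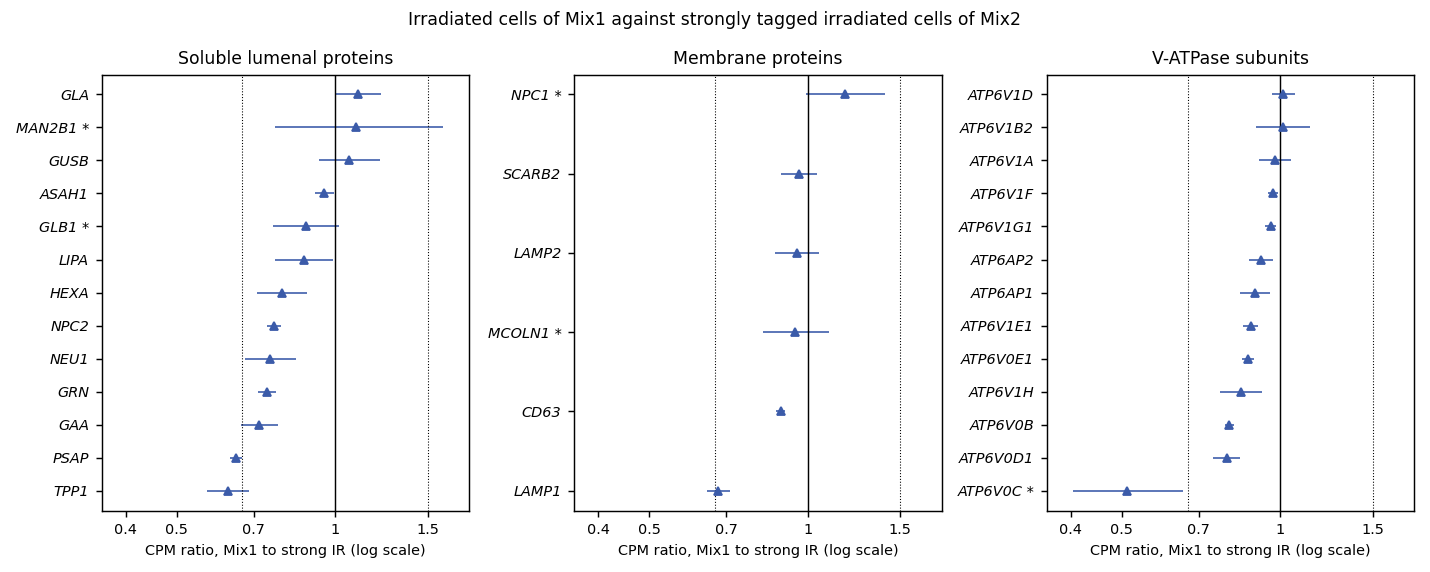
CPM ratio of Mix1 to strong IR (log axis) of each member with exact 95% counting intervals, dotted lines at 1.5 times higher and lower, and asterisks for members under 10 CPM in both. Most soluble proteins and LAMP1 lie left of 1, with TPP1 and PSAP past the line, while ATP6V1D, ATP6V1A and ATP6V1F lie close to 1.

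Other genes of the lysosomal system were read from 6 further lists, in strong IR against NC. Each count is to be set beside the share over all 7722 genes measured, 9.92% higher and 15.4% lower. Of 39 other hydrolases and activators, 19 were measured, 6 were at least 1.5 times higher and 1 was lower, with a median log2 ratio of 0.30. LGMN, an asparaginyl endopeptidase, was at 12.5 CPM in NC, 17.5 in R, 17.5 in weak IR, 32.4 in strong IR and 20.3 in Mix1 (strong IR to NC 2.60, 2.06 to 3.34). GM2A, an activator for ganglioside breakdown (1.95), PLBD2 (1.90), IDS, an iduronate sulfatase (1.63), and FUCA1, a fucosidase (1.58), were also past the limit, and GM2A and FUCA1 reached 10 CPM only through strong IR. CTSL, a cysteine cathepsin, was lower at 36.1 against 56.8 CPM (0.636, 0.562 to 0.720), and PPT1, a palmitoyl thioesterase, and DNASE2, an acid nuclease, had ratios of 0.679 and 0.864.

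Of 24 other lysosomal membrane proteins 5 were measured and 1, the sialic acid exporter SLC17A5, was higher (1.64, 1.34 to 2.01), beside TMEM9 (1.30), LAPTM4A (1.21), LAPTM4B (1.05) and TMEM192 (0.934). TMEM55B of this list was not matched by symbol. Of 13 other V-ATPase genes 5 were measured, 0 were higher and 0 lower, and the median log2 ratio was -0.04. With 5 genes measured in each, these lists cannot be told by count from the 9.92% higher and 15.4% lower over all genes. ATP6V1E2 had a ratio of 1.36, RNASEK of 1.07, ATP6V0A1 of 0.972, ATP6V1C1 of 0.968 and ATP6V0E2 of 0.947. ATP6V1C1, a V1 stalk subunit, ranged from 30.6 CPM in R to 37.8 in Mix1.

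The list of genes for sorting to the lysosome stayed near the level of all genes. It covers the mannose 6-phosphate tag and its receptors, and also AP-3 subunits and SORT1, which serve other routes. Of its 15 genes 13 were measured, and 0 were higher and 0 lower, against 9.92% and 15.4% of all genes measured. The median log2 ratio was -0.11, the same as over all genes. GNPTG, a subunit of the phosphotransferase that builds the tag, had a ratio of 1.40, AP3S1 of 1.16 and the receptor IGF2R of 1.10, while the other receptor, M6PR, had 0.774, GGA2 0.780 and AP3B1 0.783. Of 12 genes of the Ragulator and Rag GTPase system, which holds mTORC1 at the lysosomal surface, 9 were measured with a median log2 ratio of 0.17. LAMTOR4 was higher (1.56, 1.47 to 1.66) and FNIP1 lower (0.620, 0.470 to 0.828), beside LAMTOR2 (1.28), RRAGA (1.23), LAMTOR3 (0.893) and RRAGD (0.894). These single calls among 9 genes are near the shares over all genes.

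The transcription factors of the family that regulates lysosomal genes were under the minimum. TFEB was at 1.64 CPM in NC and 3.28 in strong IR, TFE3 at 5.73 and 6.89, and MITF at 1.47 and 1.55. The 4 factors of the family, TFEC included, summed to 8.85 CPM in NC and 11.9 in strong IR, a ratio of 1.34 (1.003 to 1.83). The ratio was 2.00 for TFEB, on 10 UMIs in NC and 89 in strong IR, with an interval of 1.04 to 4.32, and the intervals of TFE3 (0.835 to 1.78) and MITF (0.504 to 2.45) included 1. Their activity was not measured.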

How the data were processed

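HCT116 cells were profiled in 2 droplet libraries, Mix1 and Mix2, with a hashtag count for Mix2. The deposited values are whole UMI counts per gene and barcode, not normalized. Their headers name Cell Ranger, 3.1.0 in Mix1 and 3.0.1 in Mix2, with GRCh38, and the submitters' processing notes also name Seurat 2.3. The unfiltered Mix2 matrix served only for droplets without cells (100 to 600 UMIs, 56461 droplets).

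Cells with at least 200 genes and under 10% mitochondrial UMIs were kept: 15630 of 17019 in Mix1 and 11652 of 13888 in Mix2, of which 9981 fell in a population. The 80% rule removed droplets with mixed tags. No doublet caller was run, and doublets within a population remain. Counts were summed per population and scaled to CPM, with exact intervals (Python 3.11.15, scipy 1.17.1). The method was tested on simulated data. TMM factors were from edgeR 4.0.16, without its tests. Positions are from GENCODE 44 and promoter sequences from RefSeq.

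The members, tag limits and lists were chosen with earlier results of these data known. Named genes were all members, the 3 highest and 3 lowest ratios per further list, 3 transcription factors and 2 check genes. Other genes of further lists past the 1.5 limit were named as well, except 1 that is not reported here. Low members rest on few UMIs. Alternatives are given in the closing section.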

Additional observations from a re-analysis of the deposited data

Results flagged for a closer look

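LAMP1 was flagged because the irradiated populations lay on opposite sides of NC: 1.31 in strong IR and 0.884 in Mix1, with counting intervals on either side of 1. The ratio of Mix1 to strong IR was 0.677. With 1 sample of each, the difference was not tested. Library, preparation and the tag8 limit, which applied to strong IR only, cannot be told apart. Over the alternatives the Mix1 to strong IR ratio ran from 0.632 to 0.722, and the strong IR to NC ratio from 1.10 to 1.41, the lowest in cells with 10000 to 19999 UMIs, where the interval (0.893 to 1.38) included 1.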

How the results depend on the processing

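Alternatives changed the cell filter, mitochondrial limit, tag share, scaling, weight of cells, depth, free RNA, CPM minimum and the class of NPC2, and 3 were chosen after seeing the data (both UMI bands, and strong IR under 10000 tag8 counts). The counts of members higher in strong IR stayed between 6 and 8 against NC and between 5 and 9 against weak IR. Members higher in Mix1 than in NC numbered 3 in the main values, 0 in cells with 5000 to 15000 UMIs, 1 in cells with 5000 to 9999 and 0 in cells with 10000 to 19999, where 2 were lower in place of 0. Members lower in Mix1 than in strong IR numbered 2 in the main values, 5 in cells with 5000 to 15000 UMIs and 6 in cells with 5000 to 9999. With no CPM minimum 1 member was lower in R and 1 in weak IR, against 0. In cells with 10000 to 19999 UMIs 1 was higher and 1 lower in R, 1 lower in weak IR and 2 lower in strong IR, and in cells with 5000 to 9999 UMIs 1 was lower in strong IR, each against 0 in the main values. The cause was not tested. In all, 127 of 140 alternative counts and 143 of 146 class medians kept within 1.5-fold or within counting error. The 3 medians that moved did so in cells with 10000 to 19999 UMIs: membrane -0.23 in strong IR and -0.44 in Mix1, and soluble 0.29 in Mix1. Of the ratios of single members, 588 stayed within their main counting interval and 84 did not, and 0 called ratios changed direction. No paired analysis was possible because each population is 1 sample. Depth limits members under 10 CPM, and most of all R, with 4731705 UMIs.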
